A study of Mus musculus with 23 samples.

Results

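The zona pellucida glycoproteins and the factors secreted by the oocyte were followed through their mRNAs in mouse zygotes and 2-cell embryos. The 8 genes were taken by name from the transcript records as a list of egg coat genes (Zp1, Zp2 and Zp3), oocyte growth factors (Gdf9 and Bmp15) and small oocyte proteins (Omt2a, Omt2b and Oosp1), out of 22619 named genes. Zona pellucida proteins form the coat around the egg that sperm must bind and cross. GDF9 and BMP15 are ligands of the TGF-beta family that the oocyte sends to the granulosa and cumulus cells around it, where they act through BMPR2, type I receptors and SMAD proteins. These mRNAs are made during oocyte growth, and maternal mRNAs are widely degraded between oocyte maturation and the 2-cell stage, while the embryo's own genome becomes active.

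The labels give the strain as B6D2F1 (C57BL/6xDBA/2), which in the methods is that of the oocyte donors, while sperm came from C57BL/6 males. Oocytes at the germinal vesicle (GV) stage were injected with siRNA against the transcription factor genes Etv5, Mlx or Rfx1, or with a control siRNA (siCtrl), then matured in vitro and fertilized (in vitro by the labels, whereas the methods describe sperm injection for fertilization). Late 2-cell embryos, at 36 h after fertilization by the labels, made up the groups siEtv5 (2 libraries), siMlx (3), siRfx1 (3) and siCtrl (3), and late zygotes, at 14 h, the same 4 groups with 3 libraries each, 23 in all. The study's text places both collections some hours later. In every group the zona was removed with protease before lysis, so the values below concern mRNA in blastomeres and not the coat itself. The study states that experiments were repeated in each group, but the labels do not tie the libraries of a group to separate collections of embryos, so the p-values reflect differences among libraries that may be technical replicates.

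Depth, as aligned bases worked out from coverage and FPKM, was 119 to 174 Mb in the 3 siRfx1 2-cell libraries and 404 to 991 Mb in the other 20. The siRfx1 2-cell libraries stood apart in 2 further ways. They had 7378 to 8071 genes at 1 FPKM or more, against 10567 to 10729 in siCtrl 2-cell embryos. Their sum over 8 oocyte marker genes was 241 to 399 FPKM, against 65.8 to 92.5 FPKM in siCtrl, and their sum over 9 markers of the 2-cell stage was 195 to 338 FPKM, against 530 to 735 FPKM. The siMlx 2-cell libraries were also low in the 2-cell markers, with 79.1 to 298 FPKM. The targets themselves were lower without overlap in siEtv5 and siRfx1 embryos at both stages and in siMlx zygotes. Of these, only Etv5 in siEtv5 2-cell embryos passed by limma (adjusted p = 0.022). Etv5 in siEtv5 zygotes was not tested. Etv5 was also lower in siRfx1 2-cell embryos (6.73 to 12.6 FPKM, against 43.7 to 49.3 FPKM in siCtrl). Rfx1 was also lower in siMlx zygotes (0.863 to 1.33 FPKM, against 3.05 to 3.52 FPKM). In 2-cell embryos Rfx1 was 1.85 to 2.88 FPKM with siMlx and 4.39 and 4.94 FPKM with siEtv5, against 8.12 to 10.7 FPKM. In siMlx 2-cell embryos Mlx was 0.836, 2.26 and 4.05 FPKM, against 2.42, 4.42 and 3.74 FPKM in siCtrl, so that the groups overlapped.

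The most abundant pair, Omt2a and Omt2b, are neighbouring genes on chromosome 9 (mm9, Omt2a at 78159779 to 78161855 on the minus strand, Omt2b at 78175837 to 78177427 on the plus strand) and near copies of each other. Their exon 2 is shown because it is an exon of the same length in which the copies differ. It is 171 bases in both, of which 131 are identical, and capitals mark the 40 bases that differ. The last 58 bases are identical. Exon 1 differs as well, with 722 bases in Omt2a and 235 in Omt2b, of which 204 of 232 aligned bases are identical.
Omt2a exon 2 (mm9, chr9:78160712-78160882, minus strand): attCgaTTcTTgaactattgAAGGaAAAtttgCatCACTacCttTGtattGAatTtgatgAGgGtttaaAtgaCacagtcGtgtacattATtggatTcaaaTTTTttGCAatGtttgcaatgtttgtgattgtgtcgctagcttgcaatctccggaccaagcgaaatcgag
Omt2b exon 2 (mm9, chr9:78176329-78176499, plus strand): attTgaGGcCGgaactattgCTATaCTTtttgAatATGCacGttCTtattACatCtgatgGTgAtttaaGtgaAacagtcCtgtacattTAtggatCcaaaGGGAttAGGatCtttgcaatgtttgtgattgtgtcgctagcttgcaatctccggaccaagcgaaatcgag
In exon 3, by contrast, 329 of 330 aligned bases are the same, so that a read within it can seldom be assigned to one copy by its sequence. Omt2a exon 3 was listed at a low coverage, per 1000 aligned Mb, in 5 zygote libraries. It was 0.912 and 53.1 in siCtrl replicates 1 and 3 and 36.6 in siEtv5 replicate 2. In siRfx1 replicates 1 and 3 it was 15.1 and 0.122. The other 7 zygote libraries had 2107 to 5857. What set these values apart was not tested, and the sum of both genes is given beside comparisons in which either is named.

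The 3′ ends of the maternal mRNAs are shown because the length of their poly(A) tail is known to be controlled there, and the libraries were primed on poly(A). The cytoplasmic polyadenylation element (CPE), searched as TTTTAT or TTTTAAT on the mRNA strand, and the polyadenylation signal AATAAA are in capitals in these 30-base windows from mm9.
Gdf9 (chr11:53251366-53251395, plus strand): ggTTTTATgtgacggaagAATAAActgttg
Bmp15 (chrX:5891241-5891270, minus strand): attttcttaatcttaaagAATAAAttttca
Omt2b (chr9:78177366-78177395, plus strand): tttaacggTTTTATAATAAATAAAagtttc
Zp1 (chr19:10988793-10988822, minus strand): cagatattaaatggactcAATAAAccattg
Zp2 (chr7:127275880-127275909, minus strand): tcactgattggacttgcaAATAAAgagact
Zp3 (chr5:136464459-136464488, plus strand): accttgtatcccttccgcAATAAAagaaga
Over the last 100 bases, Gdf9 had 1 CPE, Omt2a had 1 and Omt2b had 2 (the window shows 1 of them, which abuts the signal), whereas Zp1, Zp2, Zp3, Bmp15 and Oosp1 had none. Of 27632 named transcripts, 16.6% held a CPE in the same window and 57.2% had AATAAA in their last 50 bases. The motif is a description of these letters and says nothing of whether it is used.

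Promoters of 5 members (Zp3, Bmp15, Oosp1, Omt2a and Omt2b) were matched in the RefSeq table of GRCm38.p6, from 250 bases before to 50 after the start. They are described because the oocyte factors FIGLA and NOBOX are known to act on zona and growth factor genes, FIGLA at E-box elements. Capitals mark CANNTG, the E-box, and TAATTG or TAATTA, known as NOBOX elements, on either strand. The 3 promoters shown hold the most E-boxes (Oosp1, Zp3) or a NOBOX element with a large stage difference of the mRNA (Bmp15).
Oosp1 (chr19:11691002-11691301, minus strand): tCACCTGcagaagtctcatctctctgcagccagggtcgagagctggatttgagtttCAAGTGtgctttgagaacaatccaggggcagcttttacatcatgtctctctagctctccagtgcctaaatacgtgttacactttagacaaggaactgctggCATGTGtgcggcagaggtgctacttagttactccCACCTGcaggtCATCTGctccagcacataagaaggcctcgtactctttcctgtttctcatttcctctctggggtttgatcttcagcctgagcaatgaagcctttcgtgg
Zp3 (chr5:135979855-135980154, plus strand): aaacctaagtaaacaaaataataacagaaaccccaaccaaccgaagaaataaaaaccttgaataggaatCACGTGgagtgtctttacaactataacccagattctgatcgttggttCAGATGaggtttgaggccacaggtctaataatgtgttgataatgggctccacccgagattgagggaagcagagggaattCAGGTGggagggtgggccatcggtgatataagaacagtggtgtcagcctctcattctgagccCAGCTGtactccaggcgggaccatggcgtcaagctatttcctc
Bmp15 (chrX:6320675-6320974, minus strand): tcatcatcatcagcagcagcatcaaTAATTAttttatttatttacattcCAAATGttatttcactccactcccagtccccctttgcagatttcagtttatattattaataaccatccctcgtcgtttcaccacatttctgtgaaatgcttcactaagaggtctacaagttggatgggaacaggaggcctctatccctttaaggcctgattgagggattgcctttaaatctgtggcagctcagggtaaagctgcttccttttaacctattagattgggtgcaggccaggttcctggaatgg
The number of E-boxes was 5 in Oosp1, 4 in Zp3, 3 in Omt2a, 2 in Omt2b and 1 in Bmp15. Of 32851 promoters of this length 72.3% held at least 1, with a median of 1. Omt2b and Bmp15 each had 1 NOBOX element, which 12.4% of promoters held. The mRNA of Omt2b was not called between the stages with siCtrl. A link of these elements to the levels was not tested.

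How far a level can be read depends on the exons of a gene. Among genes with a single transcript of at least 3 exons and at least 10 FPKM, 95.3 to 95.7% of internal exons shorter than 200 bases were listed at 0 in siRfx1 2-cell libraries, 75.6 to 86.3% in the other 2-cell libraries and 92.6 to 95.0% in zygote libraries. Of last exons, 2.03 to 5.62% were at 0 over the 23 libraries. First exons were at 0 in 58.4 to 65.0% of these genes in siRfx1 2-cell libraries, against 21.5 to 29.5% in the other 2-cell libraries and 17.5 to 29.2% in zygotes. Gdf9 and Bmp15 lie wholly in exons of at least 200 bases. The share of length in such exons is 86.1% for Omt2a, 76.7% for Omt2b, 42.7% for Zp3, 41.6% for Oosp1 and 18.9% for Zp1. Zp2 has 18 exons, none longer than 190 bases. Zp1 is listed at 0 in all 23 libraries in exon 4 and in exons 6 to 12, and its reads lie in exons 1 and 3, while those of Zp2 lie mostly in exons 1 and 2. FPKM divides by the whole transcript, so the levels and ranks of the zona genes are those of transcripts with most exons at 0.

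**Figure D1:**
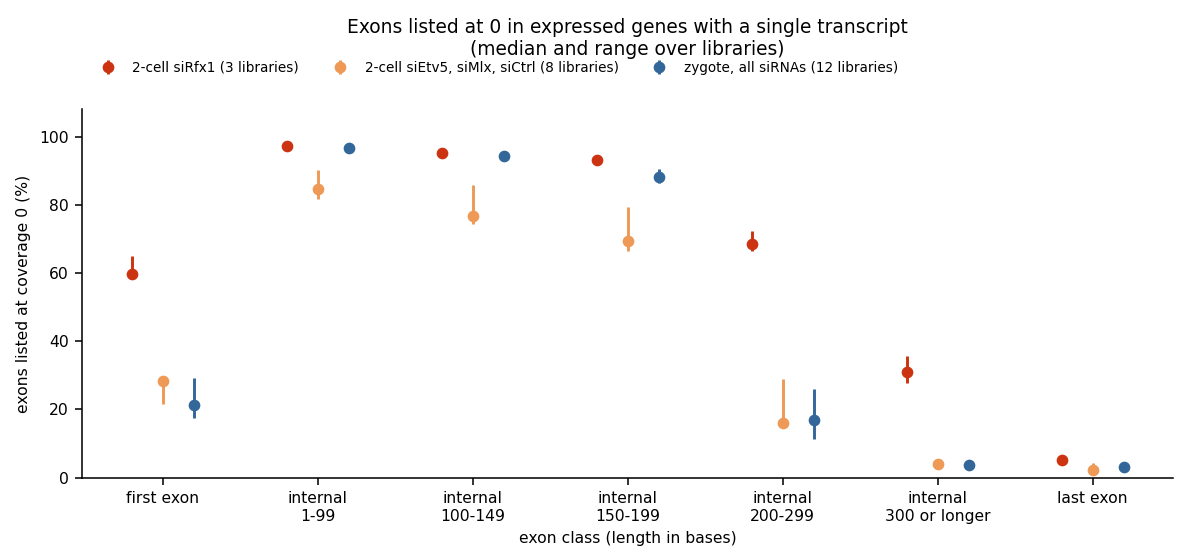
Share of exons listed at a coverage of 0 (%, y axis) by exon class (x axis) in genes with a single transcript, for siRfx1 2-cell, other 2-cell and zygote libraries; points are medians and bars the range over libraries. Short internal exons were at 0 in most genes of every library, and siRfx1 2-cell libraries also had 58.4 to 65.0% of first exons and 53.8 to 60.7% of longer internal exons at 0.

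By mean FPKM over the 11 2-cell libraries, Omt2b ranked 1 and Omt2a 6 of 22619 genes, followed among the members by Oosp1 (391), Gdf9 (433), Bmp15 (1106), Zp3 (3883), Zp1 (8622) and Zp2 (15448). Over the 12 zygote libraries the ranks were 4 for Omt2b, 17 for Omt2a, 26 for Bmp15, 96 for Oosp1, 168 for Gdf9, 2072 for Zp3, 3865 for Zp1 and 9207 for Zp2. The 8 genes together held 0.904 to 4.01% of the FPKM of a library. Within each zygote group this share was lower in deeper libraries. In siMlx zygotes it was 4.01% at 484 Mb, 3.79% at 525 Mb and 2.41% at 708 Mb. In siCtrl zygotes it was 2.63% at 580 Mb, 2.58% at 635 Mb and 2.42% at 756 Mb. The part of depth in the order of the groups was not tested. The group with the highest mean was siMlx zygotes for 6 of the 8 genes, Gdf9 and Zp2 being highest in siRfx1 zygotes, and siMlx 2-cell embryos were lowest for Gdf9, Bmp15, Omt2a, Omt2b and Oosp1. Neighbours in this order mostly overlapped. For Zp3 and Omt2a every neighbouring pair of groups did, and for Bmp15 the separate steps were that from siMlx zygotes to siRfx1 zygotes, that from siEtv5 zygotes to siRfx1 2-cell embryos and that from siEtv5 to siCtrl 2-cell embryos. In bulk embryos, less of an mRNA in every cell and fewer cells that hold it cannot be told apart. FPKM is relative to library size, and the libraries were primed on poly(A). Loss of an mRNA, a shorter poly(A) tail and more of other RNAs were therefore not separated either, at any fall given below.

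**Figure D2:**
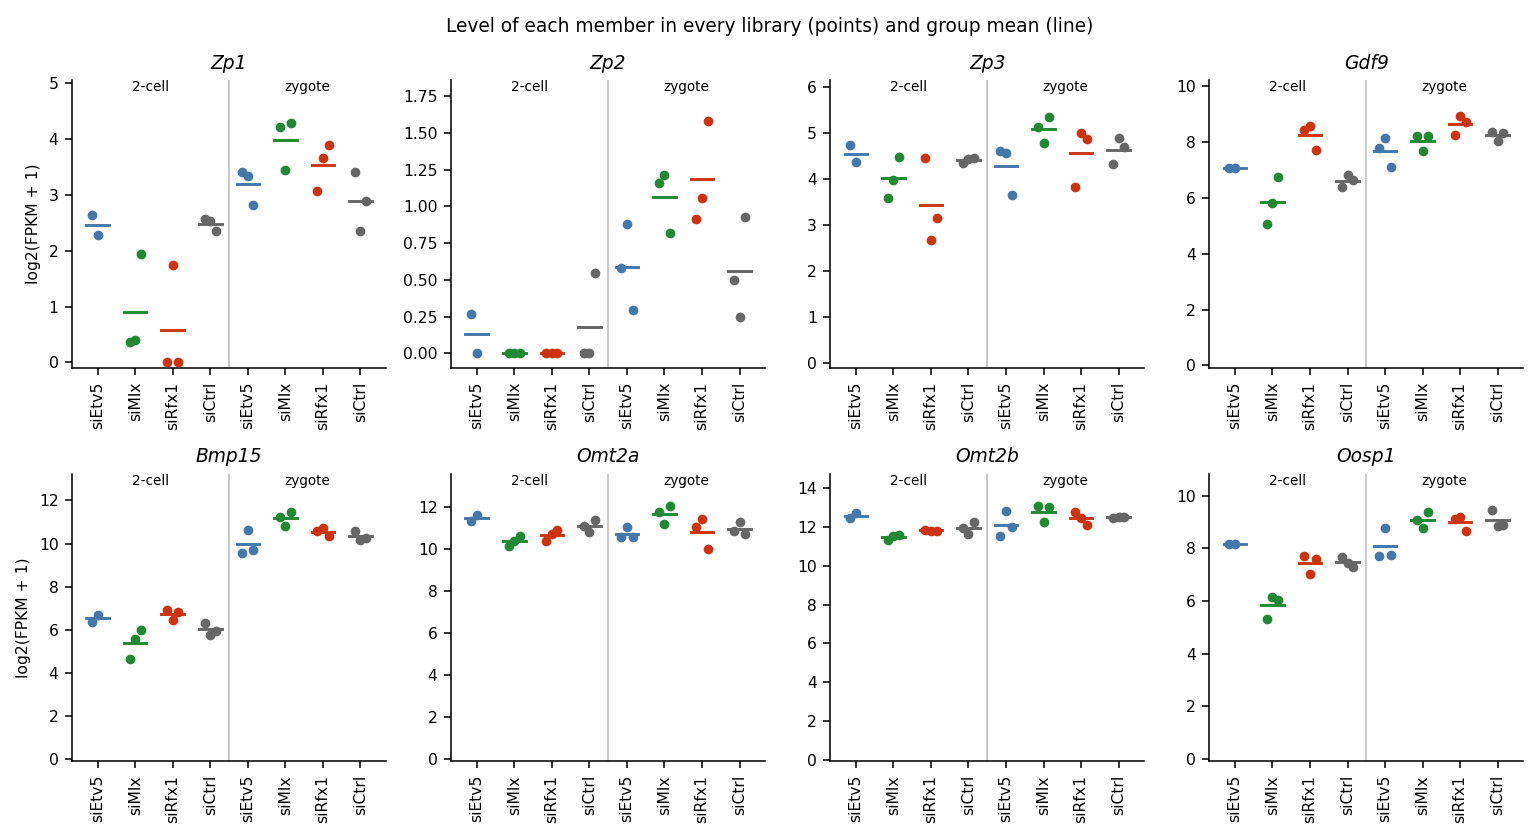
Level of each of the 8 genes on the log2(FPKM + 1) scale (y axis) in the 4 siRNA groups of 2-cell embryos and of zygotes (x axis); points are libraries and lines group means on that scale. Bmp15 lay between 24.4 and 118.6 FPKM in the 2-cell libraries and between 743 and 2853 FPKM in the zygote libraries, whereas Omt2a overlapped between the stages.

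The stage comparison asks how far each mRNA differed between late 2-cell embryos and late zygotes under 1 siRNA. Zp2 had a mean under 1 FPKM in every comparison and was not tested, which left 7 members. With siCtrl, 3 of the 7 fell and none rose by the rule used throughout (limma on rescaled log2(FPKM + 1), with a fold above 2 and an adjusted p below 0.05 by Benjamini-Hochberg). Of all 11094 genes tested, 26.9% fell and 37% rose. The median log2 fold change was -0.78 over the members and 0.27 over all genes. Fold changes are 2-cell over zygote, on a scale that understates the change of low genes. FPKM values and overlaps are as deposited unless stated, whereas the tests used rescaled values, on which an overlap can differ.

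Bmp15, the ligand that acts with GDF9 on cumulus cells, had 80.0, 53.8 and 61.5 FPKM in siCtrl 2-cell embryos, against 1543, 1156 and 1211 FPKM in siCtrl zygotes. Every zygote library was far above every 2-cell library. The log2 fold change was -4.56 (SE 0.18, adjusted p = 3.3e-06). The fall was seen along the transcript, since the mean coverage of exon 1 in 2-cell embryos was 0.0639 times that in zygotes and that of exon 2 was 0.0449 times.

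Gdf9, the ligand that drives follicle growth and cumulus expansion, had 83.1, 111.6 and 99.4 FPKM in siCtrl 2-cell embryos, against 328, 265 and 320.0 FPKM in siCtrl zygotes. The groups did not overlap, and the log2 fold change was -1.88 (SE 0.16, adjusted p = 2.82e-05). Exon 1 in 2-cell embryos was at 0.170 times its zygote coverage and exon 2 at 0.357 times. Since both ligands have all their bases in long exons, their ratio can be followed per library. Bmp15 over Gdf9 was 0.232 to 0.963 (median 0.619) in the 11 2-cell libraries and 3.06 to 9.67 (median 4.88) in the 12 zygote libraries. The ranges did not overlap under any siRNA, so Gdf9 was the higher of the pair in every 2-cell library and Bmp15 in every zygote library.

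Oosp1, a secreted protein of the oocyte related to placental PLAC1, had 204, 174 and 154 FPKM in siCtrl 2-cell embryos, against 708, 461 and 467 FPKM in siCtrl zygotes. The groups did not overlap (log2 fold change -1.85, SE 0.20, adjusted p = 8.48e-05). Its exon 1 was at 0.286 times the zygote coverage and its exon 5 at 0.373 times.

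Omt2b, named for oocyte maturation like its copy, had 4024, 3258 and 4968 FPKM in siCtrl 2-cell embryos, against 5615, 5887 and 5858 FPKM in siCtrl zygotes. All 3 were below the zygotes, and the change passed the adjusted p but not the fold (log2 fold change -0.78, SE 0.14, adjusted p = 0.00152). Omt2a had 2211, 1796 and 2619 FPKM in siCtrl 2-cell embryos, against 1865, 2460 and 1653 FPKM in siCtrl zygotes. These overlapped (log2 fold change -0.11, SE 0.19, adjusted p = 0.631), and without rescaling the sign of the Omt2a value turned to 0.15. With the last exon alone the Omt2a value was 4.99, where exon 3 was listed at 0.912 and 53.1 in siCtrl zygote replicates 1 and 3. The sum of both was 5054 to 7587 FPKM in siCtrl 2-cell embryos and 7480 to 8347 FPKM in siCtrl zygotes, with the ranges overlapping.

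The zona genes were not called with siCtrl. Zp3, which encodes the glycoprotein known as a sperm receptor of the mouse egg coat, had 19.6, 20.8 and 21.1 FPKM in 2-cell embryos, against 19.2, 28.6 and 24.9 FPKM in zygotes (log2 fold change -0.46, SE 0.21, adjusted p = 0.0845). The exons that carry this value moved in opposite directions. Exon 1 had a mean coverage per 1000 aligned Mb of 40.7 ± 7.90 in 2-cell embryos and 79.8 ± 15.0 in zygotes, and exon 8 had 38.1 ± 5.58 in 2-cell embryos and 18.5 ± 2.38 in zygotes (SD, n = 3 each). With the last exon alone the log2 fold change was 0.65. The part of the differing shares of exons at 0 in this was not tested.

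Zp1, whose product cross-links the filaments made by the other zona proteins, had 4.93, 4.75 and 4.10 FPKM in siCtrl 2-cell embryos, against 9.63, 4.08 and 6.37 FPKM in siCtrl zygotes. In deposited FPKM the groups overlapped (log2 fold change -0.61, SE 0.31, adjusted p = 0.105). Zp2, which carries the site that sperm bind in the mouse, was listed at 0 in 9 of 11 2-cell libraries, with 0.459 and 0.202 FPKM in the other 2. In the 12 zygote libraries it was 0.187 to 1.99 FPKM (median 0.859). No fold is given, since a 0 in these files can be a failed estimate.

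**Figure D3:**
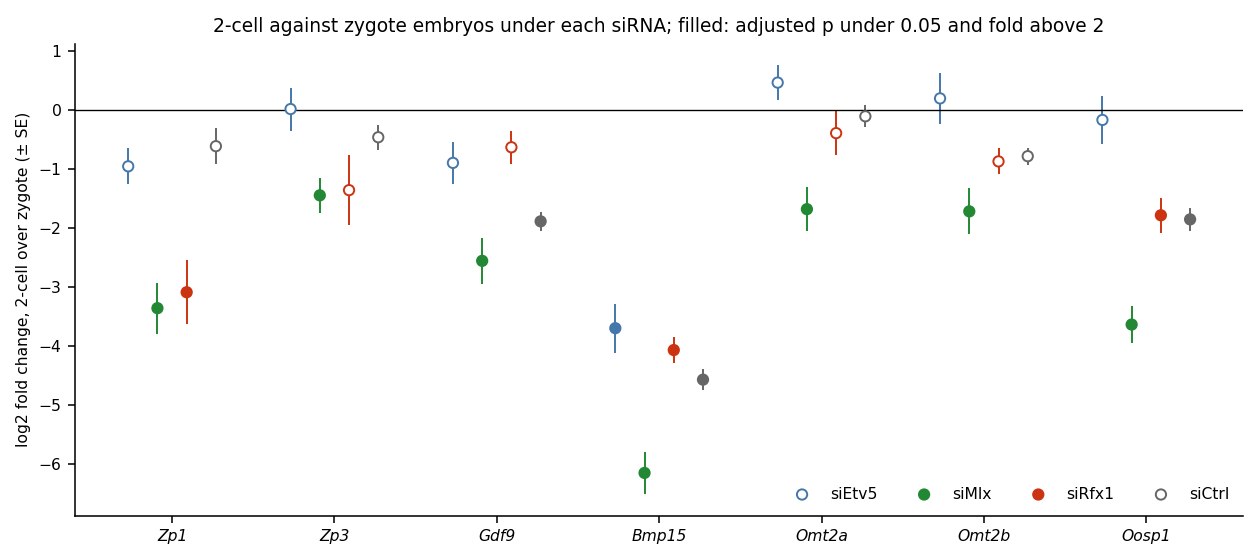
Log2 fold change of the 7 tested members, 2-cell over zygote (y axis, bars are SE), under each siRNA; filled points passed the test. Bmp15 is filled under all 4 siRNAs, between -6.14 and -3.69, and all 7 genes are filled under siMlx.

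Under the other siRNAs the number of members that fell was 1 of 7 with siEtv5, 7 of 7 with siMlx and 3 of 7 with siRfx1, and none rose. Over all genes tested 23% fell and 37.9% rose with siEtv5, 29.1% fell and 35.4% rose with siMlx, and 29.7% fell and 18.7% rose with siRfx1. The median log2 fold change over all genes was 0.40 with siEtv5, 0.20 with siMlx and -0.23 with siRfx1, and over the members -0.17 with siEtv5, -2.55 with siMlx and -1.36 with siRfx1. Bmp15 fell in all 3, with 82.3 and 102 FPKM in siEtv5 2-cell embryos, against 743, 1593 and 834 FPKM in siEtv5 zygotes (log2 fold change -3.69, SE 0.42, adjusted p = 0.000509). It had 24.4, 47.0 and 62.2 FPKM in siMlx 2-cell embryos, against 2365, 1819 and 2853 FPKM in siMlx zygotes (log2 fold change -6.14, SE 0.36, adjusted p = 7.46e-06). With siRfx1 it had 118.6, 87.8 and 111.0 FPKM in 2-cell embryos, against 1540, 1689 and 1300.3 FPKM in zygotes (log2 fold change -4.06, SE 0.22, adjusted p = 0.000236).

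With siMlx the log2 fold changes of the others were -3.63 for Oosp1, -3.35 for Zp1, -2.55 for Gdf9, -1.72 for Omt2b, -1.68 for Omt2a and -1.44 for Zp3 (SE 0.30 to 0.43, adjusted p between 3.2e-05 and 0.00439). The sum of Omt2a and Omt2b was 3697, 4296 and 4597 FPKM in siMlx 2-cell embryos, against 12247, 7241 and 12706 FPKM in siMlx zygotes, without overlap. Omt2b was lost without zygote siMlx replicate 1 (adjusted p = 0.0531) and without a filter on low genes (adjusted p = 0.0825, and from 4.47e-06 over all alternatives), and Zp3 was lost with the last exon alone, where its value was -0.11. With siRfx1, Zp1 and Oosp1 fell beside Bmp15. Oosp1 had 210.1, 129 and 193 FPKM in siRfx1 2-cell embryos, against 559, 585 and 401 FPKM in siRfx1 zygotes (log2 fold change -1.78, SE 0.30, adjusted p = 0.00386). Zp1 was listed at 0 in 2 siRfx1 2-cell libraries and at 2.34 FPKM in the other, against 7.32, 11.6 and 13.8 FPKM in siRfx1 zygotes (adjusted p = 0.00459). These are the shallow libraries in which first exons were often at 0, and exon 1 of Zp1 was at 0 in all 3. Their part in the result was not tested. Gdf9 did not pass with siRfx1 (adjusted p = 0.113), with 348, 379 and 212 FPKM in 2-cell embryos and 304, 488 and 424 FPKM in zygotes. These overlapped as deposited, and did not after rescaling.

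The knockdown comparisons set each siRNA against siCtrl at the same stage, and the 3 comparisons of a stage share the same siCtrl libraries. In siMlx zygotes 2 of 7 members, Zp1 and Bmp15, were higher than in siCtrl zygotes and none lower, where 1.13% of 8934 genes were higher and 1.02% lower (101 and 91 genes, and 71 and 612 without rescaling). Bmp15 had 2365, 1819 and 2853 FPKM in siMlx zygotes, against 1543, 1156 and 1211 FPKM in siCtrl zygotes. All 3 siMlx libraries were above all siCtrl libraries (log2 fold change 1.19, SE 0.22, adjusted p = 0.0414). Exon 1 was at 1.84 times and exon 2 at 1.79 times the siCtrl coverage. Zp1 had 17.5, 9.79 and 18.5 FPKM in siMlx zygotes, against 9.63, 4.08 and 6.37 FPKM in siCtrl zygotes. Its lowest siMlx library lay just above the highest siCtrl library (log2 fold change 1.42, SE 0.30, adjusted p = 0.0489). Both calls were close to the threshold. Leaving out any single library other than siMlx replicate 2 ended both, with adjusted p between 0.0803 and 0.174 for Zp1 and between 0.0639 and 0.174 for Bmp15 (over all alternatives 0.0337 to 0.315 for Zp1 and 0.0137 to 0.174 for Bmp15). As deposited, the sum over the oocyte markers was 973 to 1214 FPKM in siMlx zygotes and 1224 to 1462 FPKM in siCtrl zygotes, without overlap. By limma on rescaled values none of these 8 markers passed, and their log2 fold changes had a median of 0.055. The deposited sum over the 2-cell markers was 31.5 to 58.5 FPKM in siMlx zygotes and 18.9 to 39.6 FPKM in siCtrl zygotes. Of the 5 tested, 2 were higher (Usp17la and Zscan4c). The part of both marker lists and of depth in the result was not tested.

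After rescaling the log2 fold changes of the other 5 members were positive in siMlx zygotes without passing, among them Gdf9 (0.14), whose deposited FPKM averaged lower, at 266 ± 53.7 in siMlx and 304 ± 34.3 in siCtrl zygotes (SD, n = 3 each). Omt2a had 3515, 2305 and 4164 FPKM, against 1865, 2460 and 1653 FPKM in siCtrl zygotes (adjusted p = 0.0658), and Zp3 had 34.4, 26.6 and 40.0 FPKM, against 19.2, 28.6 and 24.9 FPKM (adjusted p = 0.0908). In both the siMlx replicate 2 fell inside the siCtrl range. The Omt2a values of 1865 and 1653 FPKM are those of the siCtrl libraries with exon 3 listed at 0.912 and 53.1. In siMlx zygotes exon 3 was at 3350 to 5857, and the part of this in the Omt2a difference was not tested. The sum of Omt2a and Omt2b was 12247, 7241 and 12706 FPKM in siMlx zygotes, against 7480, 8347 and 7511 FPKM in siCtrl zygotes. These overlapped in deposited FPKM, and did not after rescaling. Gdf9 stayed apart from its partner ligand, with 299, 204 and 295 FPKM in siMlx zygotes, against 328, 265 and 320.0 FPKM in siCtrl zygotes (adjusted p = 0.688). Bmp15 over Gdf9 was accordingly 7.92, 8.92 and 9.67 in siMlx zygotes, against 4.70, 4.36 and 3.78 in siCtrl zygotes, without overlap. The exons of Gdf9 differed here, with exon 1 at 1.77 times and exon 2 at 0.665 times the siCtrl coverage.

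In siEtv5 and siRfx1 zygotes none of the 7 members passed, and 1 and 2 of them had an unadjusted p under 0.05 (limma). None of 8993 genes passed in siEtv5 zygotes (689 on the higher and 428 on the lower side at an unadjusted p under 0.05). By voom 1 did. Without siEtv5 replicate 2, 54 of 9060 genes were higher and 12 lower, with 0 members among them. In siRfx1 zygotes 0.0445% were higher and 0.0111% lower (4 genes and 1 gene, and 1 each without rescaling), with 691 higher and 620 lower of 8983 at an unadjusted p under 0.05. The lowest unadjusted p in siEtv5 zygotes was that of Oosp1, with 209, 433 and 213 FPKM, against 708, 461 and 467 FPKM in siCtrl zygotes (adjusted p = 0.395). In siRfx1 zygotes it was that of Gdf9, with 304, 488 and 424 FPKM, against 328, 265 and 320.0 FPKM (adjusted p = 0.246). In deposited FPKM the Gdf9 groups overlapped and those of Oosp1 did not, and both statements reversed after rescaling.

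**Figure D4:**
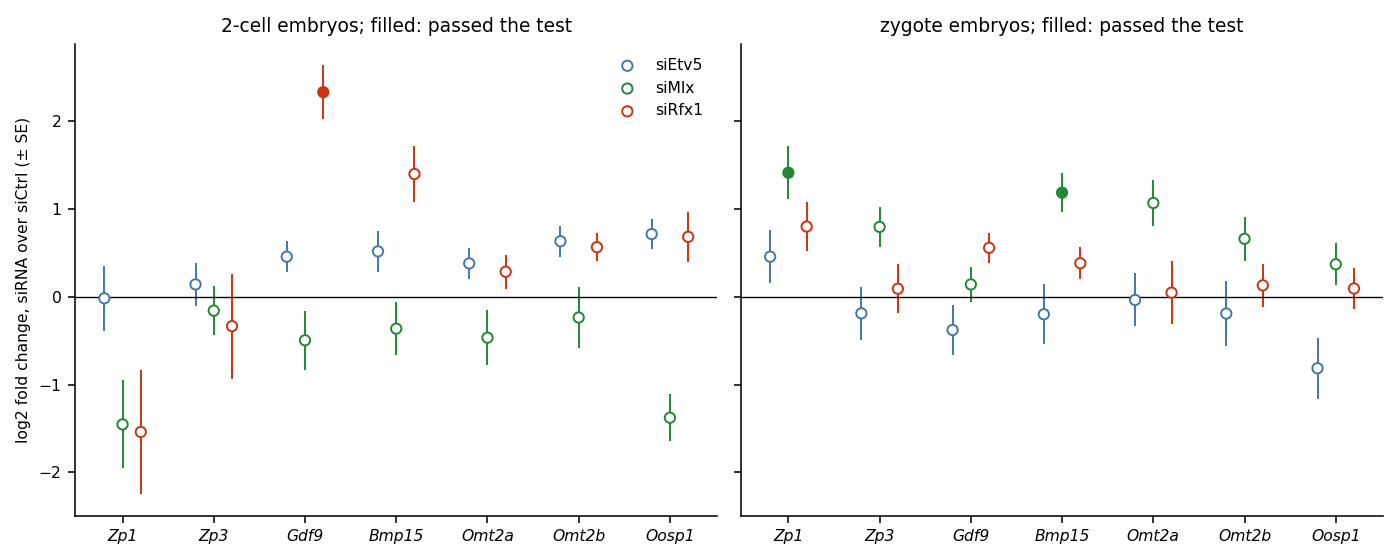
Log2 fold change of the 7 tested members, siRNA over siCtrl (y axis, bars are SE), at each stage; filled points passed the test. Filled points are Zp1 and Bmp15 in siMlx zygotes and Gdf9, at 2.33, in siRfx1 2-cell embryos.

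In 2-cell embryos Gdf9 was the member that passed, in siRfx1 embryos. It had 348, 379 and 212 FPKM, against 83.1, 111.6 and 99.4 FPKM in siCtrl 2-cell embryos, and the lowest siRfx1 library was well above the highest siCtrl library. The means were 313 ± 88.8 FPKM in siRfx1 and 98.0 ± 14.3 FPKM in siCtrl 2-cell embryos (SD, n = 3 each). The log2 fold change was 2.33 (SE 0.31, adjusted p = 0.0144), where the median over all 10302 genes was -0.25. Of all genes 2.12% were higher and 1.45% lower, which is 218 and 149 genes. These counts were 148 and 1183 without rescaling and 893 and 2247 when 1 fit held all 8 groups, and 0, 0 and 5 genes were called in all without siCtrl replicate 1, 2 or 3. Without rescaling the Gdf9 value was 1.63 and still passed. The call was lost without any 1 of the siCtrl replicates (adjusted p = 0.109 without replicate 1, 0.107 without replicate 2 and 0.104 without replicate 3, over all alternatives 5.04e-05 to 0.109). Exon 1 of Gdf9 was at 2.03 times and exon 2 at 3.32 times the siCtrl coverage.

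Bmp15 had 118.6, 87.8 and 111.0 FPKM in siRfx1 2-cell embryos, against 80.0, 53.8 and 61.5 FPKM in siCtrl 2-cell embryos. The groups did not overlap and the adjusted p was above the threshold (log2 fold change 1.40, SE 0.32, adjusted p = 0.0584). Its exons differed, with exon 1 at 0.684 times and exon 2, the last, at 2.10 times the siCtrl coverage. Bmp15 over Gdf9 was 0.341, 0.232 and 0.524 in siRfx1 2-cell embryos, against 0.963, 0.482 and 0.619 in siCtrl 2-cell embryos, with overlap. In deposited FPKM the other 5 tested members overlapped with siCtrl, apart from Zp1. Zp1 was listed at 0, 2.34 and 0 FPKM in siRfx1, against 4.93, 4.75 and 4.10 FPKM in siCtrl 2-cell embryos (adjusted p = 0.241). Rescaling divided siCtrl by 1.26 to 1.27 and siRfx1 by 0.770 to 0.777, after which Omt2b and Oosp1 were higher in siRfx1 without overlap. Of the 7 members 5 had positive and 2 negative log2 fold changes, and 4 had an unadjusted p under 0.05 (limma). At that unadjusted p 853 of 10302 genes were higher and 1538 lower. The oocyte markers moved the same way in these libraries, 3 of the 7 tested being higher (Zar1 by 3.69, Mos by 3.18 and H1foo by 2.76 on the log2 scale) and none lower. The part of the depth, of the lost first exons and of the marker levels in the Gdf9 result was not tested, and the depth and the siRNA cannot be told apart.

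**Figure D5:**
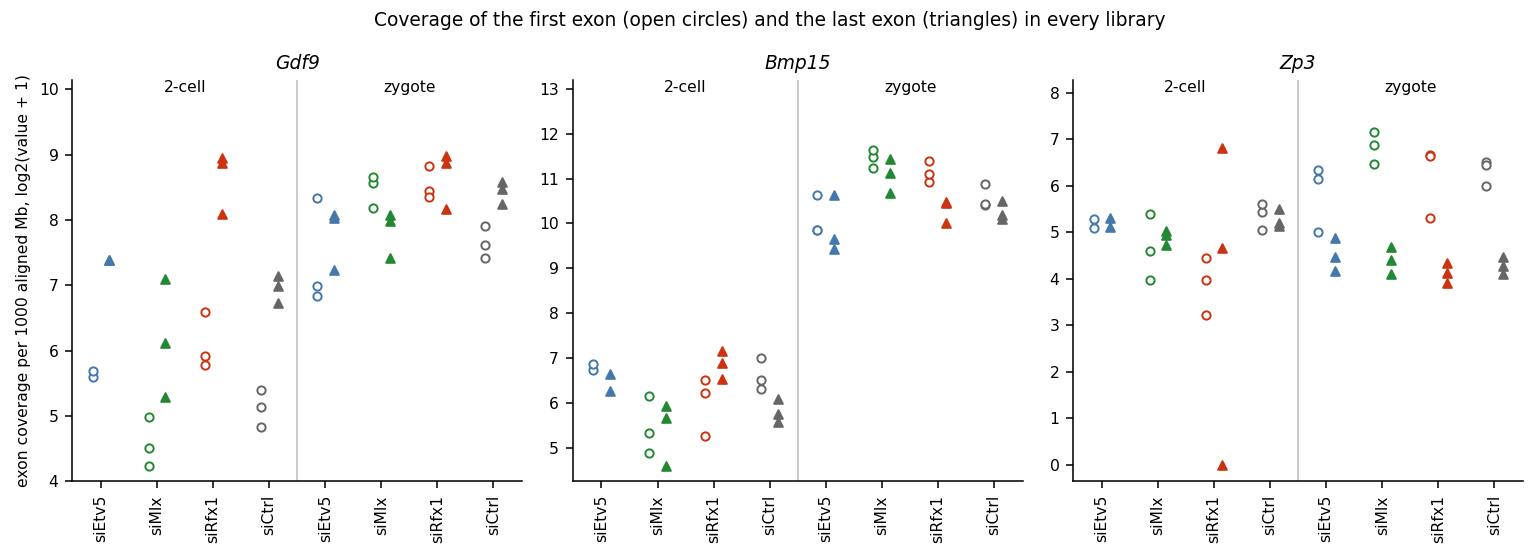
Coverage of the first exon (open circles) and of the last exon (triangles) of Gdf9, Bmp15 and Zp3 per 1000 aligned Mb, on the log2(value + 1) scale (y axis), in every library of the 8 groups (x axis). In siRfx1 2-cell embryos the last exon of Gdf9 averaged 410.3, against 123.6 in siCtrl 2-cell embryos, and the first exon 69.4, against 34.3.

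In siMlx 2-cell embryos none of the 7 passed (2 at an unadjusted p under 0.05, limma), where 0.00945% of 10584 genes were lower and none higher (1 gene, against 64 lower and 12 higher without rescaling). At an unadjusted p under 0.05, 849 genes were higher and 1133 lower. Oosp1 had 39.2, 69.4 and 64.8 FPKM in siMlx, against 204, 174 and 154 FPKM in siCtrl 2-cell embryos. In deposited FPKM each siMlx library was under the lowest siCtrl library by more than a factor of 2. The difference did not pass (log2 fold change -1.38, SE 0.27, adjusted p = 0.0786). Zp1 had 0.294, 0.318 and 2.85 FPKM in siMlx, against 4.93, 4.75 and 4.10 FPKM in siCtrl 2-cell embryos, also without overlap (adjusted p = 0.194). All 7 log2 fold changes were negative. In deposited FPKM siMlx replicate 1, which had the lowest sum of 2-cell markers (79.1 FPKM), was the lowest siMlx library for each of the 7 members. Its divisor was 0.706, against 1.00 for replicate 2 and 1.08 for replicate 3. After rescaling it was not the lowest for Zp1, Zp3, Omt2a or Omt2b.

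In siEtv5 2-cell embryos none passed (3 at an unadjusted p under 0.05, limma), where 0.0988% of 11137 genes were higher and 0.153% lower. At an unadjusted p under 0.05, 841 genes were higher and 888 lower. Oosp1 had 289 and 287 FPKM in siEtv5, against 204, 174 and 154 FPKM in siCtrl 2-cell embryos (adjusted p = 0.133). Omt2b had 5686 and 6768 FPKM, against 4024, 3258 and 4968 FPKM (adjusted p = 0.176), and Gdf9 133 and 134 FPKM, against 83.1, 111.6 and 99.4 FPKM (adjusted p = 0.281). In all 3 both siEtv5 libraries were above every siCtrl library. The sum of Omt2a and Omt2b was 8245 and 9885 FPKM in siEtv5, against 6235, 5054 and 7587 FPKM in siCtrl 2-cell embryos, also without overlap.

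Whether the stage difference itself depended on the siRNA was tested as an interaction, the 2-cell minus zygote difference under the siRNA less that under siCtrl. With siMlx 2 of 7 members had a more negative difference and none a more positive one, where 0.964% of 10787 genes were more negative and 0.195% more positive. They were Zp1 (-2.84, SE 0.57, adjusted p = 0.0353) and Oosp1 (-1.79, SE 0.36, adjusted p = 0.0353), and the other 5 were negative as well without passing. Both calls were lost without 8 of the 12 libraries, with adjusted p between 0.0635 and 0.102 for Zp1 and between 0.0526 and 0.111 for Oosp1 (over all alternatives from 0.00929 for Zp1 and 0.0123 for Oosp1). They were kept without zygote siCtrl replicate 1, zygote siMlx replicate 2, 2-cell siMlx replicate 1 or 2-cell siMlx replicate 3. With siRfx1, Gdf9 had a more positive difference (1.52, SE 0.34, adjusted p = 0.0201) and Zp1 a more negative one (-2.40, SE 0.68, adjusted p = 0.0467), where 3.04% of 10780 genes were more positive, 6.92% more negative (328 and 746 genes, and 260 and 1392 without rescaling) and the median was -0.40. The Gdf9 call was lost without zygote siCtrl replicate 1 or 3, zygote siRfx1 replicate 3 or 2-cell siCtrl replicate 1 (adjusted p between 0.0504 and 0.0533, over all alternatives from 0.00288), and that of Zp1 without 10 of 12 libraries, all but 2-cell siRfx1 replicates 2 and 3 (between 0.0544 and 0.121, over all alternatives from 0.00295). With siEtv5 none passed (2 at an unadjusted p under 0.05, limma), where 0.0995% of 11060 genes were more positive and 0.217% more negative (11 and 24 genes, and 17 each without rescaling). At an unadjusted p under 0.05, 993 genes were more positive and 1008 more negative. Without zygote siEtv5 replicate 2, 294 genes passed as more positive, 1 member among them, and 417 as more negative.

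Other genes of the same pathways gave the setting for the stage comparison in siCtrl embryos. Over all 11094 genes tested 26.9% fell and 37% rose. The counts of these short lists, here and in the next paragraph, are to be read beside those shares, and no list was tested as a set. Among other ligands of the TGF-beta family 2 of 5 tested fell and none rose, Tgfb2 with 6.69 ± 1.08 FPKM in 2-cell embryos and 104 ± 20.7 FPKM in zygotes and Tgfb3 with 2.20 ± 0.652 FPKM in 2-cell embryos and 18.6 ± 0.905 FPKM in zygotes (SD, n = 3 each). Of 7 receptors 2 rose and 2 fell. Bmpr1b, a type I receptor, had 2.99 ± 2.34 FPKM in 2-cell embryos and 17.4 ± 3.97 FPKM in zygotes, and Bmpr1a, another, 8.12 ± 3.49 FPKM in 2-cell embryos and 1.31 ± 0.640 FPKM in zygotes. Of 6 SMADs 1 rose and 3 fell. The one that rose was Smad7, an inhibitor of the pathway, with 54.5 ± 12.4 FPKM in 2-cell embryos and 0.354 ± 0.529 FPKM in zygotes. Smad1, which carries BMP signals, had 4.15 ± 2.15 FPKM in 2-cell embryos and 22.8 ± 0.818 FPKM in zygotes. Of 3 proprotein convertases, which cleave such ligands from their precursors, 1 fell (Pcsk6), and the antagonist tested, Fstl3, did not pass (adjusted p = 0.198).

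Of 5 genes of the egg surface and relatives of Oosp1, 1 rose and 2 fell. Folr4, which encodes the egg receptor JUNO for sperm IZUMO1, had 2.78 ± 2.23 FPKM in 2-cell embryos and 147 ± 23.9 FPKM in zygotes, and Plac1l was listed at 0 in all siCtrl 2-cell libraries, with 33.7 ± 10.9 FPKM in zygotes. Cd9, a tetraspanin needed for sperm and egg fusion, had 153 ± 25.9 FPKM in 2-cell embryos and 14.2 ± 5.13 FPKM in zygotes. Of 8 oocyte transcription factors 5 fell and 1 rose, Nobox having 2.86 ± 2.12 FPKM in 2-cell embryos and 104 ± 3.17 FPKM in zygotes. Of 20 other maternal transcripts all 20 fell, with a median of -2.65, against -0.78 over the 7 members and 0.27 over all genes. The sum over 11 cumulus and granulosa markers was 47.0 to 80.8 FPKM in siCtrl 2-cell embryos and 7.28 to 11.7 FPKM in siCtrl zygotes, mostly Amhr2 (44.3 ± 19.6 FPKM in 2-cell embryos and 0.119 ± 0.206 FPKM in zygotes), and 5 of the 11 genes were at 0 in all siCtrl 2-cell libraries. In siRfx1 2-cell embryos 4 of 18 other maternal transcripts were higher than in siCtrl and none lower, where 2.12% of all genes were higher and 1.45% lower. Bmpr2, the type II receptor of both ligands, was higher, with 43.7 ± 22.3 FPKM in siRfx1 and 10.9 ± 1.65 FPKM in siCtrl 2-cell embryos (adjusted p = 0.0473). The antagonist Fstl3 was lower, listed at 0 in siRfx1, against 11.2 ± 0.354 FPKM in siCtrl 2-cell embryos (adjusted p = 0.0266). A 0 in these shallow libraries can be a failed estimate.

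The 5 genes that are no members and whose profile over the 8 groups was most like the members' mean profile, by the root mean square difference of centred log2(FPKM + 1) among 7031 genes, were Slc7a11 (0.204), Mmp2 (0.220), Dazap2 (0.231), Ccdc50 (0.232) and Rab22a (0.244). The members themselves were farther from their mean profile, between 0.382 for Oosp1 and 1.51 for Bmp15, so the mean profile describes none of them closely. The distances are over 8 group means and carry no test.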

How the data were processed

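The authors reverse-transcribed RNA from blastomeres, amplified and sheared the cDNA and prepared unstranded libraries. They aligned reads to mm9 with STAR (2.5.2b in the submitters' notes) and quantified RefSeq transcripts with StringTie (1.3.4 in those notes, 1.3.3b in the file headers). The deposited files hold FPKM (fragments relative to transcript length and library size) per transcript and coverage per transcript and exon, a signal that is never negative. Read counts were not analysed here.

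From these, the FPKM of a named gene was taken as the sum of its transcripts. The 976 of 29306 transcripts without a gene name (0.610 to 1.48% of the FPKM) were left out. The ratio of coverage to FPKM is the same for all transcripts of a library and yields its aligned bases, 119 to 991 Mb. Reads carry no molecular identifiers, so depth bounds reads and not molecules. Within each of 13 comparisons, libraries were brought to a common scale by median ratios (genes reaching 1 FPKM in every library). Genes averaging 1 FPKM or above entered limma 3.58.1 (R 4.3.3) on the log2(FPKM + 1) scale, with a mean-variance trend. Adjusted p-values are Benjamini-Hochberg over all genes tested, and a call needs a fold above 2 with an adjusted p below 0.05. Scripts for the tests were tested on simulated data. Exon sequence came from mm9 and promoters from RefSeq (pysam 0.24.0, Biopython 1.88, Python 3.11.15, pandas 2.3.3, matplotlib 3.10.9).

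The alternatives tried were no filter or one at 5 FPKM, a pseudocount of 0.1, no rescaling, all 8 groups in a single fit, a replicate block, voom on fragments estimated from coverage and each library left out in turn. The last exon alone was added after seeing the data. The genes named are the 8 members, the siRNA targets, the 5 genes most alike among those averaging 5 FPKM or above, and from each list up to 3 with the largest called change (the lowest p where none was called). Members and lists were chosen with earlier results of these data known. The lists are egg surface genes, TGF-beta ligands, receptors, SMADs, convertases and antagonists, oocyte transcription factors, other maternal transcripts, and markers of oocytes, 2-cell embryos, cumulus and granulosa cells, sperm and blastocyst lineages. The sum over 7 sperm markers was 0 to 14.0 FPKM in 2-cell embryos and 9.88 to 35.1 FPKM in zygotes, and that over 6 blastocyst markers 0.760 to 47.0 FPKM in 2-cell embryos and 17.0 to 23.8 FPKM in zygotes.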

Additional observations from a re-analysis of the deposited data

Results flagged for a closer look

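The stage difference, 2-cell minus zygote, differed between siMlx and siCtrl embryos in Zp1 (-2.84 on the log2 scale) and Oosp1 (-1.79) by the interaction test of limma. With siRfx1 it differed in Zp1 (-2.40) and in Gdf9 (1.52). The siMlx and siRfx1 tests share the siCtrl libraries. In siRfx1 2-cell embryos Zp1 was listed at 0 in 2 of 3 libraries.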

How the results depend on the processing

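Counts below are members called out of 6 to 8 tested. Bmp15 fell between the stages under every siRNA in every alternative in which it was tested. With a pseudocount of 0.1 the count was 2 for the siEtv5 stage difference (main value 1), 1 in siMlx zygotes (2), 2 in siRfx1 2-cell embryos (1), and 1 for the siMlx and siRfx1 interactions (2 each). Without a filter it was 0 in siMlx zygotes and for the siMlx interaction and 1 for the siRfx1 interaction. Without rescaling it was 0 in siMlx zygotes and for the siMlx interaction. With all 8 groups in a single fit it was 3 for the siEtv5 stage difference, 0 in siMlx zygotes, 1 in siMlx 2-cell embryos (0), 3 in siRfx1 2-cell embryos and 0 for the siMlx interaction. With voom it was 3 in siMlx zygotes, as with a filter at 5 FPKM, 2 in siRfx1 2-cell embryos and 1 for the siMlx interaction. With the last exon alone, chosen after seeing the data, it was 2 for the siEtv5 stage difference, 5 for that of siMlx (7), 2 for that of siRfx1 (3), 1 in siMlx zygotes, 3 for the siMlx interaction and 1 for the siRfx1 interaction. With the last exon alone Zp1 was not among the 6 members tested, since its exon 12 was at 0 in all 23 libraries. With siRfx1, Bmp15 and Oosp1 fell between the stages in every alternative, so the stage count of 2 lacks only Zp1. The cause of the other changes was not tested.

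Leaving out each library in turn gave 3 to 3 members for the siCtrl stage difference, 1 to 3 with siEtv5 (3 without zygote siEtv5 replicate 3), 6 to 7 with siMlx and 3 to 4 with siRfx1. It gave 0 to 0 in siEtv5 zygotes, siRfx1 zygotes and siEtv5 2-cell embryos, 0 to 3 in siMlx zygotes, and 0 to 1 in siMlx 2-cell embryos (1 without replicate 3) and in siRfx1 2-cell embryos. For the interactions it gave 0 to 1 with siEtv5 (1 without zygote siEtv5 replicate 2), 0 to 4 with siMlx and 0 to 2 with siRfx1. With siCtrl the stage value of Omt2a turned sign without rescaling (0.15), with the last exon alone (4.99) and with a library left out (-0.29 to 0.087), and that of Zp3 with the last exon alone (0.65).

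Libraries share replicate numbers, and in 0 of 10 comparisons did every pair's deviations correlate above 0.1 (28 pairs, -0.14 to 0.35). Pairing by number was thus not detected, but a single noisy library fails this rule, so it cannot exclude pairing. With the replicate block the count was 3 for the siEtv5 stage difference, 1 in siMlx zygotes, and 1 for the siMlx and siRfx1 interactions.

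Of the single values of members, 319 kept their side of the threshold over the alternatives, 66 lost it, 5 gained it and 5 turned sign. Depth limits the siRfx1 2-cell libraries most, and short exons limit Zp1 and Zp2 in every library, so that a member not called is not shown to be equal. With siRfx1 the stage value of Zp1 was below that of Bmp15 with a pseudocount of 0.1 (-5.35 for Zp1, -4.08 for Bmp15) and with voom (-4.20 for Zp1, -3.99 for Bmp15).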
